A study of Homo sapiens with 8 samples.

Results

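The long non-coding RNA genes that host small nucleolar RNAs (snoRNAs) were followed in IGR-N91 neuroblastoma (NB) cells exposed to media conditioned by embryonic ganglia. The genes were chosen by symbol, as every gene named SNHG with a number plus GAS5, ZFAS1, DANCR, EPB41L4A-AS1, MIR17HG and CYTOR. This rule matched 34 of the 60676 genes in the count table. Of these, 30 had at least 10 counts over all libraries and are described. The other 4, SNHG18, SNHG27, SNHG28 and SNHG32, had no count in any library. The rule itself uses no measured value.

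The study asked how signals from embryonic sympathetic tissue change gene expression in NB cells. IGR-N91 is a human NB cell line, and all libraries came from this single line, cultured as aggregates in hanging drops. Bulk RNA-seq gave 8 libraries, 2 in each of 4 groups, which shared the line and the culture and differed in the medium. The groups were control medium, medium conditioned by chick sympathetic ganglia of embryonic day 8 (E8-cSGcm), by chick dorsal root ganglia of the same day (E8-cDRGcm), and by E15.5 mouse sympathetic ganglia (E15.5-mSGcm). The exposure lasted 20 h according to the sample labels and 24 h according to the text on the study's design. Total counts per library ranged from 7930765 to 15060744, and both E15.5-mSGcm libraries, with 7930765 and 8937397, were the shallowest. At these depths 3 counts, taken as the least a library can show, corresponded to 0.199 to 0.378 CPM (counts scaled to the library total), a limit that covers counting error only. All 8 NB markers searched for, among them HAND2, GATA3 and MYCN, had counts in every library, and their summed level was 5943 to 6031 CPM in control, 4405 to 4678 CPM in E8-cSGcm, 3536 to 3640 CPM in E8-cDRGcm and 3566 to 3734 CPM in E15.5-mSGcm. MYCN made up most of this sum, with 61200 of 78880 and 70102 of 90376 counts in the control libraries. Of the 8, 2 were called lower in E8-cSGcm, 5 in E8-cDRGcm and 3 in E15.5-mSGcm, and 0 higher, beside 3.86%, 10.9% and 7.27% of all genes called lower. Of 8 Schwann cell and fibroblast markers, 5 or 6 had counts in a library, SOX10 was at 0 in all libraries, and the summed level was 105 to 118 CPM in control, 143 to 164 CPM in E8-cSGcm, 147 to 156 CPM in E8-cDRGcm and 53.7 to 56.5 CPM in E15.5-mSGcm. In E15.5-mSGcm against control, 2 of the 5 that were tested were called higher and 1 lower. COL1A1 made up most of the Schwann cell and fibroblast sum in control, with 1296 of 1379 and 1716 of 1793 counts. The part of these shifts in the results was not tested. In bulk RNA, fewer cells of a type and less RNA per cell cannot be told apart.

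Most human snoRNAs are not transcribed from promoters of their own. They lie in introns of host genes and are released when the intron is spliced out and trimmed by exonucleases. C/D box snoRNAs (SNORD) guide 2′-O-methylation of ribosomal RNA, H/ACA box snoRNAs (SNORA) guide pseudouridylation, and scaRNAs do the same for spliceosomal RNAs in Cajal bodies. The spliced exons of a non-coding host often carry no long open reading frame, and many such transcripts are kept low by nonsense-mediated decay (NMD), which is coupled to translation. Several host genes start transcription inside a run of pyrimidines, as ribosomal protein genes do, which ties the translation of their transcripts to growth signals. MIR17HG differs from the others, since it carries the miR-17-92 cluster of microRNAs, a known target of MYC and MYCN.

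RefSeq positions on GRCh38.p14 were found for all 34 genes, and 30 of them held at least 1 snoRNA or scaRNA. Within the 34 genes lay 121 SNORD, 22 SNORA and 4 SCARNA genes, together with 8 microRNA genes. SNHG14 alone, a gene of 595855 bases at chr15:24823608-25419462 in the imprinted Prader-Willi region, held 83 of the SNORD genes. GAS5, at chr1:173863901-173869045 on the minus strand, held 10 SNORD genes and 1 SNORA gene. SNHG1, at chr11:62851978-62855885 on the minus strand, held 8 SNORD genes. In RefSeq, CYTOR, SNHG27 and SNHG28 held none, in spite of the name of the latter pair, and MIR17HG held microRNAs alone. The GENCODE annotation differs and places a SNORA70 row in SNHG27 and a SNORD64 row in SNHG28, both without counts.

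Start sites are shown because a pyrimidine run there is a known feature of this gene class. RefSeq promoter entries were found for 26 of the 30 genes. A C at the last base before the start or at the first or second base after it, followed by at least 4 C or T, was present in 7 of these 26 (26.9%), against 8.17% of 27305 promoters of the same length. Those 7 were DANCR, SNHG4, SNHG5, SNHG7, SNHG12, SNHG19 and ZFAS1. The windows below run from 10 bases before the start in the RefSeq promoter entry through the first 20 transcribed bases (30 bases, 5′ to 3′ on the gene's strand), with the pyrimidine run in capitals. For ZFAS1 and SNHG12 this start lies inside the RefSeq gene and not at its outer end, and for the other 24 genes it is the gene's end.
ZFAS1 (chr20:49278632-49278661, plus strand): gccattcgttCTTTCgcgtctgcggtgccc
SNHG5 (chr6:85678714-85678743, minus strand): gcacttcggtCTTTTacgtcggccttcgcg
SNHG12 (chr1:28581854-28581883, minus strand): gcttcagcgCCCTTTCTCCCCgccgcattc
SNHG7 (chr9:136728165-136728194, minus strand): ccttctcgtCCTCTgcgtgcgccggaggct
SNHG19 (chr16:2155339-2155368, minus strand): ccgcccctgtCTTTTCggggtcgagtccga
SNHG4 (chr5:139274091-139274120, plus strand): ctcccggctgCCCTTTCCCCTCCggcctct
DANCR (chr4:52712384-52712413, plus strand): tgcgcgccccgCCCTTgcccagagtcttcc
The starts of SNHG8, SNHG30 and GAS5 are shown for comparison and do not meet this rule at the start that RefSeq gives. In SNHG8 a stretch of pyrimidines (cctttc) begins before the start and ends at the first base after it.
SNHG8 (chr4:118278752-118278781, plus strand): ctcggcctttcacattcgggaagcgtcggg
SNHG30 (chr17:35568104-35568133, plus strand): tgtaagacctgagccgggcggagaagcaaa
GAS5 (chr1:173869026-173869055, minus strand): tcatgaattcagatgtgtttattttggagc
A match describes letters at 1 annotated start per gene, and other starts were not searched. The E-box CACGTG, searched on both strands of the window from 250 bases before to 50 bases after the start, was found in 2 of the 26 genes (7.69%, against 7.43% of all promoters). The C/EBP-ATF element TGATGNAAT was found in 0 of 26 (1.02% of all promoters) and CCAAT in 10 of 26 (38.5%, against 35.7%).

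For MIR17HG, which RefSeq places at chr13:91347687-91354577 on the plus strand, the mature microRNAs are the functional product. They are shown with the seed, bases 2 to 8, in capitals, and fall into 4 seed families. miR-17-5p and miR-20a-5p share a seed, as do miR-19a-3p and miR-19b-3p, whereas miR-18a-5p and miR-92a-3p have seeds of their own.
hsa-miR-17-5p: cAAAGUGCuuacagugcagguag
hsa-miR-20a-5p: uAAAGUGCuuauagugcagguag
hsa-miR-18a-5p: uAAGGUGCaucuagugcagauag
hsa-miR-19a-3p: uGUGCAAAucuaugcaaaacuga
hsa-miR-19b-3p: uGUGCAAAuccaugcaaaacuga
hsa-miR-92a-3p: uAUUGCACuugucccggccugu

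The host genes spanned a wide range of levels. Over the 8 libraries, GAS5 had the highest mean level at 593 CPM, followed by SNHG14 at 304, SNHG16 at 278, SNHG29 at 238 and SNHG6 at 107 CPM. GAS5, SNHG14, SNHG16 and SNHG29 together held 64.2% to 72.9% of the counts of all 30 genes in a library. Per kb of annotated exon, a scale on which genes of different length can be compared, GAS5 was again first with 120 CPM per kb, and SNHG16 (48.0), SNHG6 (42.3), SNHG25 (35.2) and SNHG29 (26.6 CPM per kb) followed. SNHG14, with 122609 bases of exon in the annotation, fell to place 19 of 30 with 2.48 CPM per kb. Lowest were SNHG26 with 0.240 and CYTOR with 0.158 CPM per kb. The order depended on the length used. Per kb of the canonical transcript, GAS5 and SNHG16 kept the first 2 places, SNHG29 took place 3 and SNHG14 place 6. Neighbours in the order were often not separated: the libraries of SNHG16, SNHG6 and SNHG25 overlapped on the plot of level per kb, as did those of SNHG5, DANCR and SNHG17.

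**Figure D1:**
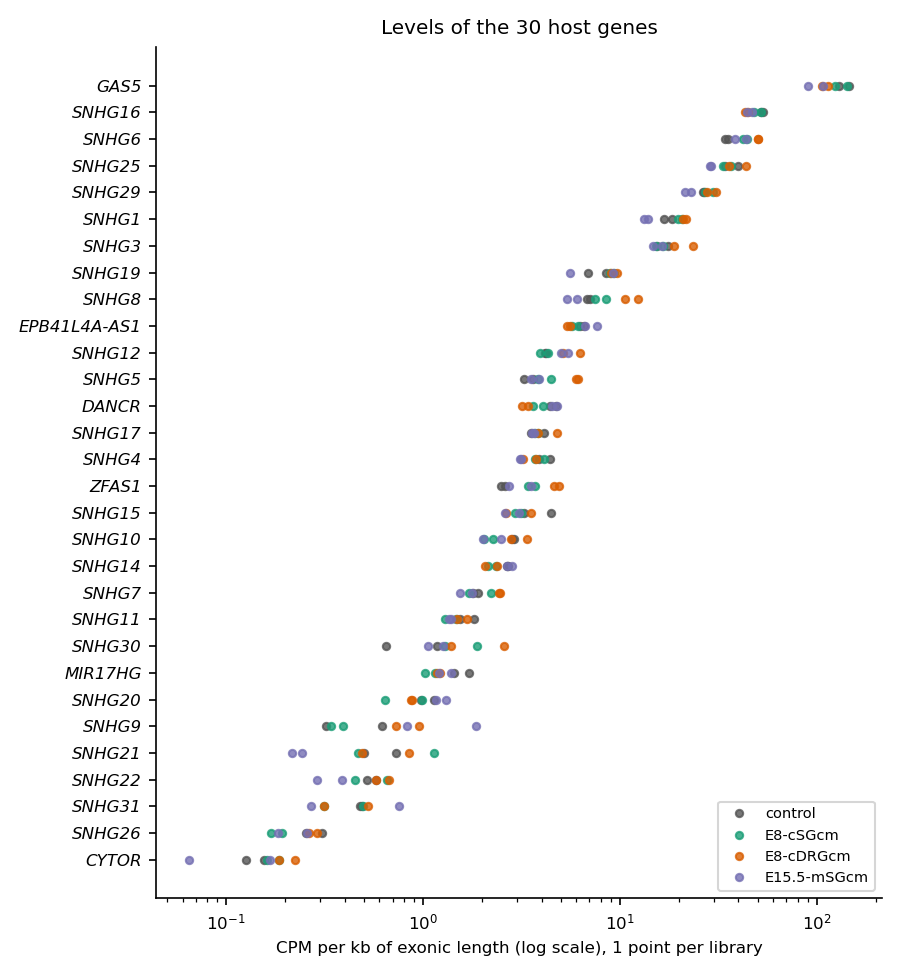
Level of the 30 host genes in CPM per kb of exonic length on a log axis, with 1 point for each of the 8 libraries, colored by medium. GAS5 stood above all others at a mean of 120 CPM per kb and CYTOR was lowest at 0.158 CPM per kb.

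The sum over the 30 genes was 2174 and 2117 CPM in control medium, 2161 and 2027 CPM in E8-cSGcm, 1989 and 2155 CPM in E8-cDRGcm, and 1940 and 1784 CPM in E15.5-mSGcm. Both E15.5-mSGcm libraries thus lay below all others, and the E8-cDRGcm libraries overlapped those in control medium. Without GAS5 alone the sum was 1455 and 1474 CPM in control and 1463 and 1591 CPM in E8-cDRGcm, which overlapped. Without GAS5 and SNHG14, both abundant and lower in E8-cDRGcm than in control, it was 1126 and 1144 CPM in control against 1171 and 1156 CPM in E8-cSGcm, 1209 and 1299 CPM in E8-cDRGcm and 1062 and 1008 CPM in E15.5-mSGcm. On this last sum, whose genes were left out after their values were seen, both chick media lay above control and E15.5-mSGcm below it.

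Comparisons between media were made with edgeR's quasi-likelihood test on all 16680 genes that passed its filter on low counts, and 29 of the 30 host genes were among them. A call required an adjusted p (Benjamini-Hochberg) below 0.05 together with a change of 1.5-fold or more. SNHG9, with 3 to 10 counts per library, was not tested.

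In aggregates exposed to E8-cDRGcm, 4 of the 29 host genes, ZFAS1, SNHG5, SNHG8 and SNHG30, rose and 0 fell. They make up 13.8% of the tested host genes, against 9.81% of all tested genes called upregulated and 10.9% called downregulated in this comparison. At an unadjusted p under 0.05, 8 host genes lay below control (27.6%, against 27.1% of all genes), and DESeq2 called 3 higher and 0 lower. The first 3 are abundant enough to be read in every library, whereas SNHG30 rested on 16 to 57 counts.

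ZFAS1 lies beside ZNFX1, in the opposite direction, and hosts SNORD12, SNORD12B and SNORD12C. Its level was 20.7 and 21.8 CPM in control, 30.9 and 28.4 CPM in E8-cSGcm, 38.4 and 40.6 CPM in E8-cDRGcm, and 22.7 and 29.4 CPM in E15.5-mSGcm. The E8-cDRGcm libraries were the highest and did not overlap with any other group, and the control libraries were the lowest. The log2 fold change in E8-cDRGcm was 0.89 ± 0.10 (SE, adjusted p = 4.8e-10). It was 0.48 ± 0.10 in E8-cSGcm (adjusted p = 2.6e-04), under the fold limit, and 0.30 ± 0.11 in E15.5-mSGcm (adjusted p = 0.0303), which was past the adjusted p in 9 of 14 other settings.

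SNHG5, host of SNORD50A and SNORD50B, had a level of 41.2 and 45.6 CPM in control, 56.0 and 48.3 CPM in E8-cSGcm, 77.3 and 75.3 CPM in E8-cDRGcm, and 48.9 and 44.3 CPM in E15.5-mSGcm. E8-cDRGcm stood apart from the other 3 groups, which lay close to each other. The log2 fold change was 0.81 ± 0.07 in E8-cDRGcm (adjusted p = 1.53e-11), 0.26 ± 0.08 in E8-cSGcm (adjusted p = 0.01) and 0.10 ± 0.09 in E15.5-mSGcm (adjusted p = 0.399).

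SNHG8, within which RefSeq places SNORA24, had a level of 46.6 and 45.1 CPM in control, 49.4 and 56.1 CPM in E8-cSGcm, 70.2 and 81.5 CPM in E8-cDRGcm, and 40.2 and 35.8 CPM in E15.5-mSGcm. It was highest in E8-cDRGcm and lowest in E15.5-mSGcm, with no overlap between these groups and control. The log2 fold change was 0.73 ± 0.08 in E8-cDRGcm (adjusted p = 5.4e-10), 0.21 ± 0.08 in E8-cSGcm (adjusted p = 0.047) and -0.27 ± 0.09 in E15.5-mSGcm (adjusted p = 0.0166), the latter pair under the fold limit.

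SNHG30, host of SNORD7, had 25 and 16 counts in control, 38 and 30 in E8-cSGcm, 30 and 57 in E8-cDRGcm, and 16 and 15 in the shallower E15.5-mSGcm libraries. The E8-cDRGcm libraries, at 2.24 and 4.18 CPM, lay above the control libraries at 1.91 and 1.05 CPM but differed widely from each other. The level was 2.20-fold that of control, with an SE of 0.33 on the log2 scale (adjusted p = 0.00401). This call was lost with DESeq2, without control replicate 2 and without E8-cDRGcm replicate 2, and the log2 fold change ranged from 0.62 to 1.60 over 14 other settings. The calls of ZFAS1, SNHG5 and SNHG8 held in all 14 other settings.

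**Figure D2:**
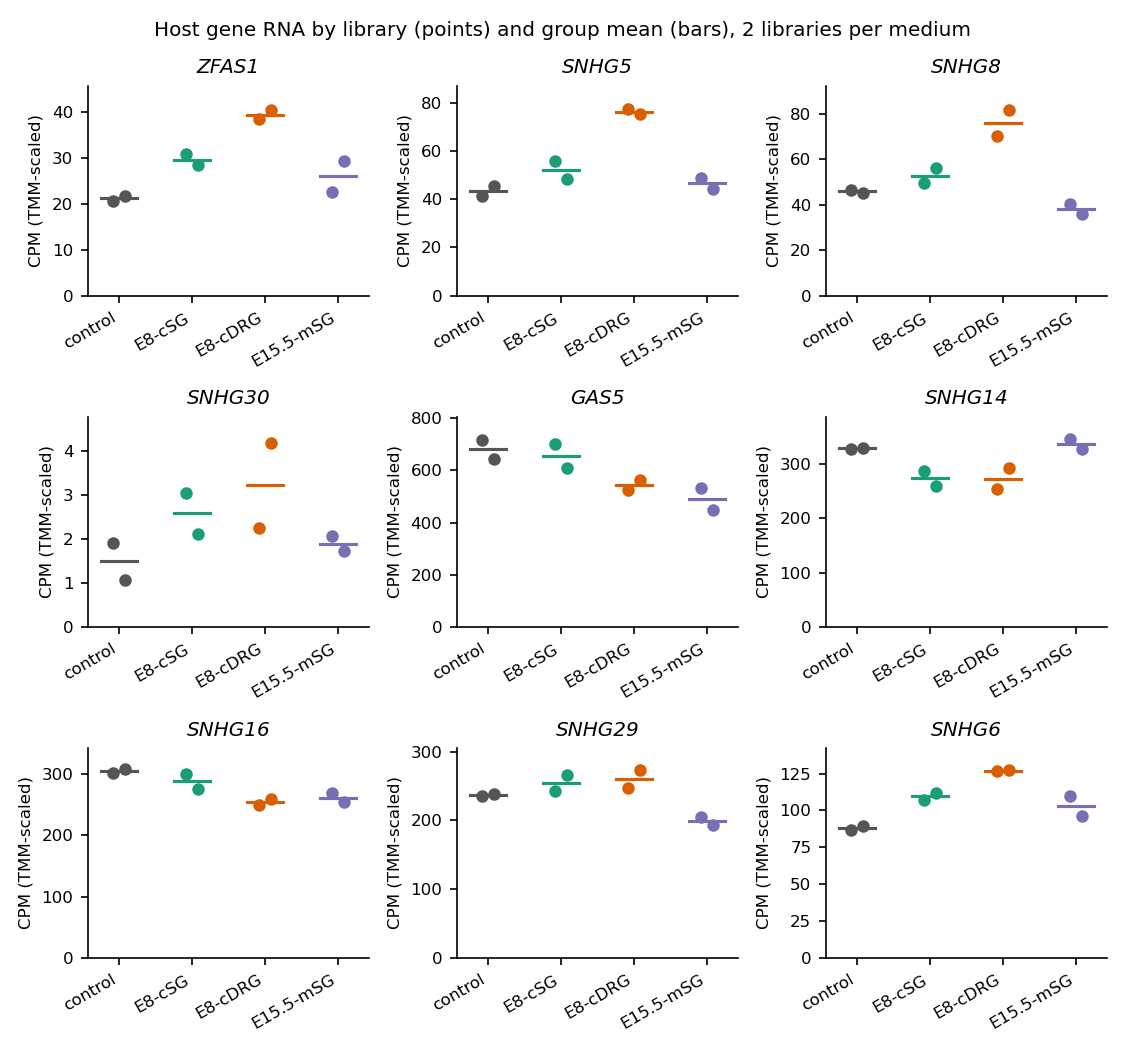
Level in CPM (TMM-scaled, axes from 0) of the 4 host genes called in E8-cDRGcm and of the 5 with the highest mean CPM. Points are single libraries and bars are means of the 2 libraries of a group. ZFAS1, SNHG5 and SNHG8 were highest in both E8-cDRGcm libraries, while GAS5 had its lowest value, 447 CPM, in E15.5-mSGcm.

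GAS5 is named for its accumulation in cells arrested in growth, and its spliced transcript is a textbook substrate of NMD. Its level was 719 and 643 CPM in control, 702 and 610 CPM in E8-cSGcm, 526 and 564 CPM in E8-cDRGcm, and 531 and 447 CPM in E15.5-mSGcm. Both latter groups lay below control, while E8-cSGcm overlapped it. The log2 difference from control was -0.48 ± 0.11 in E15.5-mSGcm (adjusted p = 0.0124), -0.32 ± 0.11 in E8-cDRGcm (adjusted p = 0.0424) and -0.05 ± 0.11 in E8-cSGcm (adjusted p = 0.766). None of them reached the fold limit of 1.5, and GAS5 was not called in any medium.

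SNHG14, whose transcript runs antisense through UBE3A, had 329 and 330 CPM in control, 288 and 261 CPM in E8-cSGcm, 254 and 293 CPM in E8-cDRGcm, and 348 and 329 CPM in E15.5-mSGcm. Both chick media lay below control and mouse medium overlapped it. The log2 difference was -0.27 ± 0.06 in E8-cSGcm (adjusted p = 5.35e-04) and -0.27 ± 0.06 in E8-cDRGcm (adjusted p = 2.05e-04), against 0.04 ± 0.06 in E15.5-mSGcm (adjusted p = 0.655). The direct tests of E15.5-mSGcm against the chick media gave 0.30 ± 0.06 (E8-cSGcm, adjusted p = 6.28e-05) and 0.31 ± 0.06 (E8-cDRGcm, adjusted p = 4.3e-05), all under the fold limit.

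SNHG16, host of SNORD1A, SNORD1B and SNORD1C, had 302 and 309 CPM in control, 301 and 276 CPM in E8-cSGcm, 250 and 259 CPM in E8-cDRGcm, and 270 and 254 CPM in E15.5-mSGcm. It was lower by a small margin in the latter groups, with log2 differences of -0.26 ± 0.05 in E8-cDRGcm (adjusted p = 4.76e-05) and -0.22 ± 0.05 in E15.5-mSGcm (adjusted p = 8.88e-04). SNHG29, host of SNORD49A, SNORD49B and SNORD65, had 236 and 238 CPM in control, 243 and 266 CPM in E8-cSGcm, 247 and 274 CPM in E8-cDRGcm, and 205 and 193 CPM in E15.5-mSGcm. E15.5-mSGcm was the lowest group, at -0.25 ± 0.06 from control (log2, adjusted p = 4.46e-04).

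SNHG6, host of SNORD87, had 86.5 and 89.4 CPM in control, 107 and 112 CPM in E8-cSGcm, 127 and 127 CPM in E8-cDRGcm, and 110 and 96.5 CPM in E15.5-mSGcm. All conditioned libraries lay above both control libraries. The log2 difference was 0.53 ± 0.06 in E8-cDRGcm (adjusted p = 1.67e-09), 0.32 ± 0.06 in E8-cSGcm (adjusted p = 7.82e-05) and 0.23 ± 0.06 in E15.5-mSGcm (adjusted p = 0.00455). At 1.44-fold in E8-cDRGcm, SNHG6 was the closest to the fold limit among the genes past the adjusted p that were not called there.

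E8-cSGcm called 0 of the 29 host genes in either direction with edgeR, against 4.73% of all genes called upregulated and 3.86% downregulated. At an unadjusted p under 0.05 there were 11 (40.3% of all genes), and DESeq2 called 0. At an adjusted p under 0.05 without the fold limit, 5 lay above control (ZFAS1, SNHG6, SNHG5, SNHG8 and SNHG1) and 4 below it (MIR17HG, SNHG10, SNHG14 and DANCR). These are shares of 17.2% and 13.8%, beside 16.1% and 15.2% of all genes. E15.5-mSGcm likewise called 0 of 29, against 6.65% and 7.27% of all genes, with 13 at an unadjusted p under 0.05 (45.4% of all genes) and 0 calls by DESeq2. There 3 lay above control (SNHG12, ZFAS1 and SNHG6) and 8 below (GAS5, SNHG15, SNHG4, SNHG1, SNHG10, SNHG8, SNHG29 and SNHG16) at the adjusted p alone, or 10.3% and 27.6%, beside 17.8% and 20.0% of all genes. In E8-cDRGcm the counts were 10 above and 6 below, or 34.5% and 20.7%, beside 24.8% and 24.7% of all genes. The 10 were SNHG30, ZFAS1, SNHG5, SNHG8, SNHG6, SNHG12, SNHG7, SNHG3, SNHG1 and SNHG29, and the 6 were DANCR, MIR17HG, GAS5, SNHG14, SNHG16 and EPB41L4A-AS1.

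The median log2 fold change of the 29 genes was 0.14 in E8-cDRGcm, -0.05 in E8-cSGcm and -0.22 in E15.5-mSGcm, while the median of all tested genes lay within 0.02 of 0 in each. The 3 comparisons share the control libraries and are therefore not independent of each other.

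**Figure D3:**
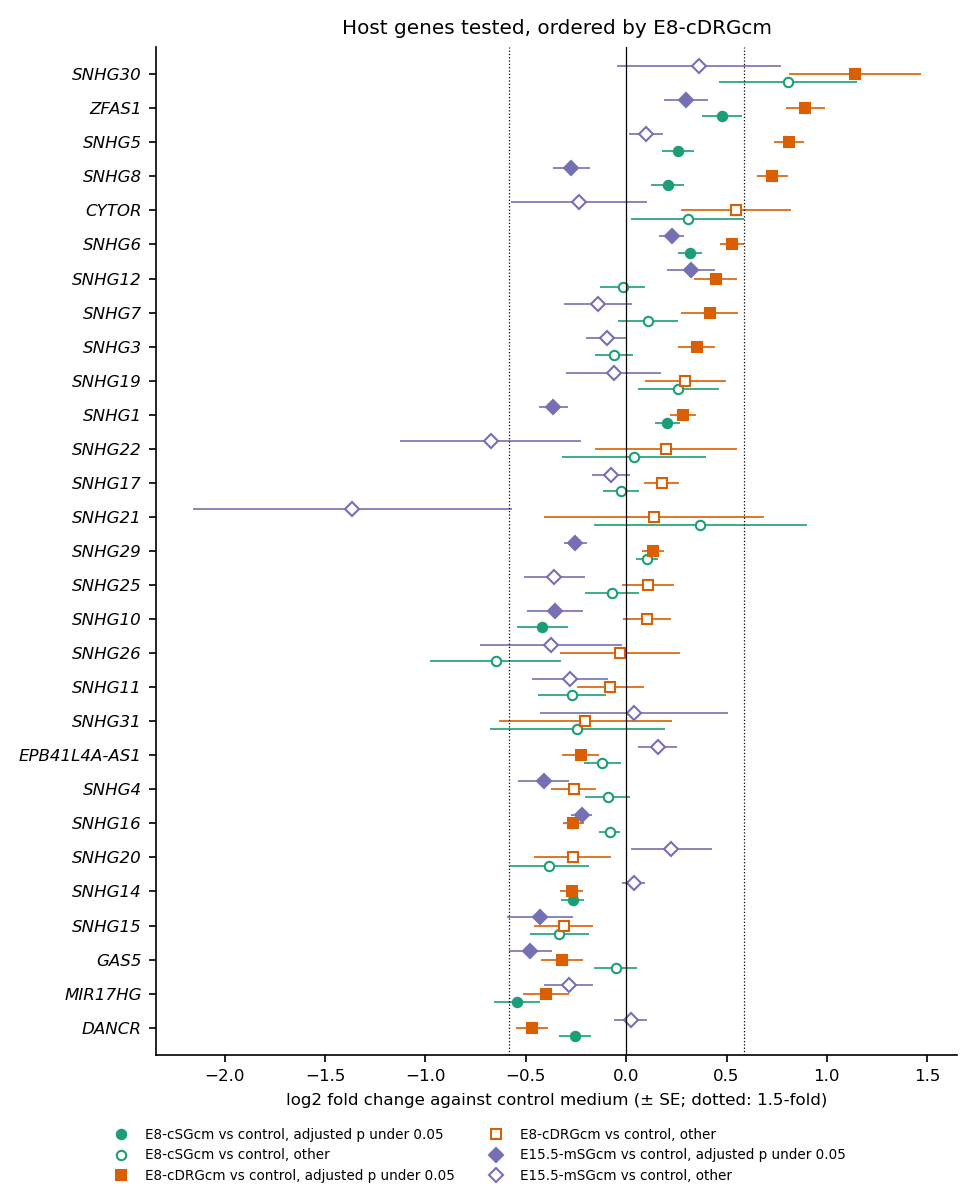
Log2 fold change against control medium, with its SE, of the 29 tested host genes in the 3 conditioned media, ordered by E8-cDRGcm. Filled symbols mark an adjusted p under 0.05 and dotted lines mark a 1.5-fold change. SNHG30, ZFAS1, SNHG5 and SNHG8 passed the upper line in E8-cDRGcm, and no filled symbol passed the lower line.

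The genes with a pyrimidine run at the start did not move as a block. In E8-cDRGcm, ZFAS1 and SNHG5 were called, SNHG12 (log2 0.45 ± 0.11) and SNHG7 (0.42 ± 0.14) were past the adjusted p alone, SNHG19 (0.29 ± 0.20) and SNHG4 (-0.26 ± 0.11) were past neither, and DANCR was at -0.47 ± 0.08 (adjusted p = 7.83e-06). SNHG8 and SNHG30, whose starts shown above do not meet the rule, were called in the same comparison. The start of SNHG8 nevertheless lies at the end of a pyrimidine stretch.

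DANCR and MIR17HG were singled out after their values were seen, as the pair with the lowest log2 fold changes in E8-cDRGcm. DANCR, host of SNORA26, had 48.1 and 45.0 CPM in control, 36.6 and 41.2 CPM in E8-cSGcm, 32.3 and 34.9 CPM in E8-cDRGcm, and 48.8 and 45.8 CPM in E15.5-mSGcm. Both chick media lay below control, and the mouse medium overlapped it. MIR17HG had 18.6 and 22.0 CPM in control, 14.8 and 13.2 CPM in E8-cSGcm, 15.1 and 15.7 CPM in E8-cDRGcm, and 17.9 and 15.54 CPM in E15.5-mSGcm. Every conditioned library lay below both control libraries, with log2 differences of -0.54 ± 0.12 in E8-cSGcm (adjusted p = 3.28e-04), -0.40 ± 0.11 in E8-cDRGcm (adjusted p = 0.00339) and -0.29 ± 0.12 in E15.5-mSGcm (adjusted p = 0.0645), none of them at the fold limit. MYCN, an activator of this cluster, had log2 fold changes of -0.45 ± 0.05 in E8-cSGcm (adjusted p = 2.56e-09), -0.90 ± 0.05 in E8-cDRGcm (adjusted p = 8.1e-18) and -0.82 ± 0.05 in E15.5-mSGcm (adjusted p = 2.75e-16). A tie between MYCN and MIR17HG was not tested.

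Direct comparison of the media gave the most host gene calls between E15.5-mSGcm and E8-cDRGcm. The share of all genes called in either direction was also highest there, at 26.2%, beside 22.3% and 7.49% in the other direct comparisons. Here 5 of the 29 host genes fell in E15.5-mSGcm relative to E8-cDRGcm (17.2%, against 13.1% of all genes called lower) and 0 rose (13.1% of all genes called higher). At an unadjusted p under 0.05, 4 host genes were higher (13.8%, against 28.1% of all genes), and DESeq2 called 0 higher. SNHG8 had a log2 difference of -1.002 ± 0.09 (adjusted p = 2.66e-12), SNHG5 of -0.71 ± 0.08 (adjusted p = 1.45e-09) and ZFAS1 of -0.60 ± 0.10 (adjusted p = 5.21e-06). SNHG1, a dense host of C/D box snoRNAs, had 72.7 and 66.6 CPM in control, 82.4 and 78.1 CPM in E8-cSGcm, 85.9 and 83.4 CPM in E8-cDRGcm, and 55.3 and 52.9 CPM in E15.5-mSGcm. It lay above control in the chick media and below it in the mouse medium with no overlap, and the difference between E15.5-mSGcm and E8-cDRGcm was -0.65 ± 0.07 on the log2 scale (adjusted p = 7.79e-10). CYTOR, named for regulation of the cytoskeleton, rested on 53 and 45 counts in E8-cDRGcm (3.96 and 3.30 CPM) against 9 and 26 in E15.5-mSGcm (1.15 and 2.97 CPM), with a log2 difference of -0.78 ± 0.32 (adjusted p = 0.0382). The call of CYTOR was lost with DESeq2 and without E8-cDRGcm replicate 1 or E15.5-mSGcm replicate 1, and its log2 difference ranged from -1.65 to -0.29. That of ZFAS1, at 1.51-fold, was lost with RLE size factors and without E8-cDRGcm replicate 2 or E15.5-mSGcm replicate 1, with a range from -0.81 to -0.44. Those of SNHG1, SNHG5 and SNHG8 held in all 14 other settings. At the adjusted p alone, 12 host genes were lower and 4 higher in E15.5-mSGcm than in E8-cDRGcm, beside 26.8% and 25.8% of all genes. The 4 were DANCR, EPB41L4A-AS1, SNHG14 and SNHG20, of which SNHG20 was past the adjusted p in only 6 of 14 other settings.

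Between the sympathetic media of mouse and chick, SNHG20, host of SCARNA16, was the single call, higher in E15.5-mSGcm (3.45% of the host genes, against 10.2% of all genes called higher and 12.1% lower). It had 75 and 56 counts in E8-cSGcm (6.01 and 3.92 CPM) and 62 and 62 counts in the shallower E15.5-mSGcm libraries (7.94 and 7.08 CPM), a log2 difference of 0.61 ± 0.21 (adjusted p = 0.016). At the adjusted p alone, 5 host genes were higher and 6 lower, beside 23.9% and 25.9% of all genes. The call of SNHG20 was lost with DESeq2, when every gene with a single count was tested, and without E8-cSGcm replicate 2 or E15.5-mSGcm replicate 1, with a range from 0.31 to 0.92. Between E8-cDRGcm and E8-cSGcm, edgeR called 0 host genes (2.62% of all genes called higher and 4.87% lower), with 12 at an unadjusted p under 0.05 (39.4% of all genes) and 0 calls by DESeq2. At the adjusted p alone, 7 were higher in E8-cDRGcm (SNHG5, SNHG10, SNHG8, SNHG12, ZFAS1, SNHG3 and SNHG6) and 2 lower (DANCR and SNHG16), or 31.0% of the host genes beside 30.2% of all genes. SNHG5 had the lowest adjusted p among the 9 genes, at 0.55 ± 0.07 (adjusted p = 2.72e-07).

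The rarest host genes gave little. SNHG21 had 7 to 15 counts in the control and chick libraries and 2 counts in each E15.5-mSGcm library, SNHG31 had 6 to 19 counts and SNHG22 6 to 25 counts in a library. None of the 3 was called in any comparison, and differences of the size found for SNHG8 or SNHG5 were not detectable at this depth, with SEs of 0.35 to 0.80 on the log2 scale against control. Like them, SNHG11, SNHG17, SNHG19, SNHG20, SNHG25, SNHG26 and CYTOR were past the adjusted p in no comparison with control.

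Some host genes share exonic bases with a gene on the opposite strand in the annotation: SNHG6 (58.9% of its exonic bases, with MCMDC2), EPB41L4A-AS1 (51.2%, with EPB41L4A), SNHG8 (37.6%, with PRSS12) and ZFAS1 (36.4%). The library kit keeps strand. The strand option of the counting is not given in the sources used here, so that reads of such pairs may not be told apart. SNHG5 shares 13.2% of its exonic bases with genes on its own strand, among them the pseudogene PKMP3.

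The snoRNAs inside the host genes were read where they had rows of their own. By RefSeq and GENCODE alike, 95 rows of the table lay within a host gene on its strand, 75 of them without a single count. Of 37 rows wholly inside annotated exons of their host, 34 were at 0. A counter that sets aside reads falling in exons of several genes would leave such rows empty, but the setting used is not given in the sources used here. At least 10 counts in total were reached by 13 rows, and 11 of them were tested, 10 snoRNAs and the microRNA gene MIR4449 in DANCR. GENCODE also places SNORA74 in SNHG4 and SNORA70 in SNHG31, but RefSeq uses other symbols there. Neither row is in the counts that follow. SNORA74 had 64 and 61 counts in control, 68 and 54 in E8-cSGcm and 40 and 57 in E8-cDRGcm. It had 19 and 19 in the shallower E15.5-mSGcm libraries, and SNORA70 had 17 counts in total.

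Most of those rows were called lower in E8-cDRGcm and E15.5-mSGcm, where no host gene was called lower. In E8-cDRGcm 10 of the 11 were called lower and 0 higher, in E15.5-mSGcm 8 of 11 lower and 0 higher, and in E8-cSGcm 2 of 11 lower and 0 higher, against 10.9%, 7.27% and 3.86% of all genes called lower. Their median log2 fold change was -0.90 in E8-cDRGcm, -1.04 in E15.5-mSGcm and -0.35 in E8-cSGcm. The count in E8-cSGcm was 0 with DESeq2 and 1 with a filter at 1 count in total, with one at 10 counts in every library, and without control replicate 1 or E8-cSGcm replicate 2, whereas it ranged from 7 to 10 in E8-cDRGcm and from 6 to 8 in E15.5-mSGcm over 14 other settings.

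Short RNA rows outside the host genes, a set chosen after values were seen, were also called lower more often than higher. Of 92 other snoRNA and scaRNA rows, 48 were called lower in E8-cDRGcm, 39 in E15.5-mSGcm and 11 in E8-cSGcm, and 0 were called higher in these comparisons. Of 20 spliceosomal snRNA rows, 15, 10 and 5 were called lower and 0 higher. Of 45 rows of other RNA types (misc RNA), 13, 9 and 2 were called lower and 2, 2 and 0 higher, with medians of -0.30, -0.31 and -0.07. Column purification retains short RNAs unevenly, and the part of RNA recovery in these values was not tested.

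The 5 snoRNAs whose values are described next are shown for what was counted, as the letters of their GENCODE transcript. For C/D box snoRNAs the capitals mark box C (ATGATGA or GTGATGA, neither of which is in SNORD99) near the 5′ end and the last CTGA, box D, near the 3′ end. For H/ACA box snoRNAs they mark the last ACA.
SNORD12C in ZFAS1: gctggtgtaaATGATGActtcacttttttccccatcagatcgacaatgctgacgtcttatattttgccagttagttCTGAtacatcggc
SNORD104 in SNHG25: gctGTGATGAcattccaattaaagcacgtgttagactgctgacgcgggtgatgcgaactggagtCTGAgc
SNORD99 in SNHG12: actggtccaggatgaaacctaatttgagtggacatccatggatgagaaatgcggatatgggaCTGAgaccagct
SNORA26 in DANCR: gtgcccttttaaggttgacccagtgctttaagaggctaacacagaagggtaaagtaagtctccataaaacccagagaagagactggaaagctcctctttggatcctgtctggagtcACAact
SNORA73B in SNHG3: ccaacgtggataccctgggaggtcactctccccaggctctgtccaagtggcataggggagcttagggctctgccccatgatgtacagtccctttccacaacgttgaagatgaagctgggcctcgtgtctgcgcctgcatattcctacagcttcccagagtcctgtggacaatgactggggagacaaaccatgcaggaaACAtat

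SNORA73B, a form of the U17 snoRNA that takes part in cleavage of the ribosomal RNA precursor, was by far the most counted of them. It had 20488 and 21462 counts in control, 16114 and 17006 in E8-cSGcm, 11152 and 11984 in E8-cDRGcm, and 6305 and 5285 in E15.5-mSGcm, or 1567 and 1411, 1292 and 1191, 834 and 878, and 808 and 604 CPM. Each conditioned medium lay below control. The log2 fold change was -0.80 ± 0.15 in E8-cDRGcm (adjusted p = 0.0124) and -1.08 ± 0.16 in E15.5-mSGcm (adjusted p = 0.00646). In E8-cSGcm it was -0.26 ± 0.15 (adjusted p = 0.288) and was not called. Per read of its host SNHG3 there were 24.8 and 19.7 SNORA73B reads in control and 10.9 and 9.17 in E8-cDRGcm. SNHG3 itself was 0.35 ± 0.09 above control on the log2 scale there (adjusted p = 0.00523). SNORA73B is nearly identical to SNORA73A in the same host, and reads of the pair may be split between them.

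SNORD12C and its host ZFAS1 were called in opposite directions in E8-cDRGcm. SNORD12C had 13.8 and 10.8 CPM in control, 11.7 and 9.03 CPM in E8-cSGcm, 7.03 and 6.08 CPM in E8-cDRGcm, and 8.71 and 7.43 CPM in E15.5-mSGcm. The log2 fold change was -0.90 ± 0.16 in E8-cDRGcm (adjusted p = 1.55e-05) and -0.60 ± 0.17 in E15.5-mSGcm (adjusted p = 0.00578). Reads of SNORD12C per read of ZFAS1 went from 0.664 and 0.495 in control to 0.183 and 0.150 in E8-cDRGcm.

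SNORD104, in SNHG25, had 38.0 and 36.0 CPM in control and 20.9 and 22.1 CPM in E8-cDRGcm, with a log2 fold change of -0.78 ± 0.09 (adjusted p = 6.44e-09), while SNHG25 was at 0.11 ± 0.13 (adjusted p = 0.52). SNORA26, in DANCR, had 30.3 and 21.0 CPM in control and 9.05 and 11.3 CPM in E8-cDRGcm, with a log2 fold change of -1.32 ± 0.16 (adjusted p = 7.72e-07). DANCR itself, at -0.47, had the same sign. SNORD99, in SNHG12, was at -0.87 ± 0.15 (adjusted p = 6.94e-06) with its host at 0.45 ± 0.11. With 2 libraries a group, the ratio of snoRNA to host has no test of its own here.

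**Figure D4:**
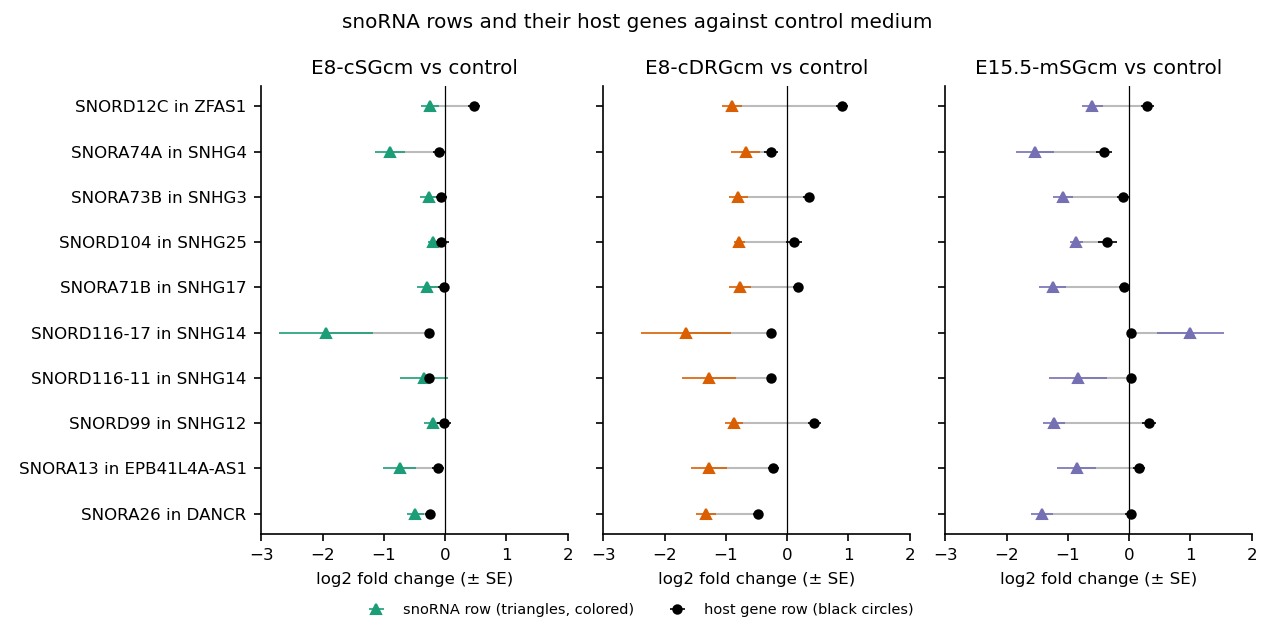
Log2 fold change against control medium, with its SE, of 10 snoRNA rows (triangles) and of the genes that host them (circles), in the 3 conditioned media. In E8-cDRGcm every triangle lies below 0, from -1.65 to -0.68, and left of its host. The hosts ZFAS1, SNHG12, SNHG3, SNHG17 and SNHG25 lie above 0 there. SNORD116-17 rests on 1 to 12 counts a library, and the SNORD116 rows are near-identical copies whose reads may be split.

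Genes of the pathways around the hosts were counted from lists. Of 22 NMD and exon junction factors, all tested, E8-cDRGcm lowered 2 and raised 0 (10.9% of all genes called lower and 9.81% higher), E8-cSGcm lowered 2 and raised 0 (3.86% and 4.73%), and E15.5-mSGcm raised 2 and lowered 0 (6.65% of all genes called higher and 7.27% lower). At the adjusted p alone the list was mixed in E8-cDRGcm, with 9 above and 7 below control (24.8% and 24.7% of all genes). It was also mixed in E15.5-mSGcm, with 9 above and 5 below (17.8% and 20.0% of all genes). In E8-cSGcm it leaned to one side, with 1 above and 9 below (16.1% and 15.2% of all genes). The median log2 fold change of the list was 0.09 in E8-cDRGcm and -0.12 in E8-cSGcm. UPF1 itself, the central NMD helicase, was at 0.41 ± 0.05 in E8-cDRGcm (adjusted p = 6.67e-08), under the fold limit. SMG9, a subunit of the kinase complex that phosphorylates UPF1, fell in E8-cDRGcm (-0.77 ± 0.09, adjusted p = 1.29e-08) and in E8-cSGcm (-0.71 ± 0.09, adjusted p = 2.12e-07). PNRC2, a decapping adaptor, fell in E8-cDRGcm (-0.60 ± 0.08) and DHX34, a helicase that aids UPF1, in E8-cSGcm (-0.60 ± 0.11). UPF2 (0.67 ± 0.06, adjusted p = 5.57e-11) and UPF3B (0.61 ± 0.10, adjusted p = 6e-05), which bridge UPF1 to the exon junction, rose in E15.5-mSGcm.

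Of 7 stress mRNAs known to be sensitive to NMD, 6 were tested. E8-cDRGcm raised 3 of them, DDIT3 (log2 1.74 ± 0.11, adjusted p = 1.91e-15), UPP1 (1.62 ± 0.17, adjusted p = 2.66e-10) and GADD45A (1.01 ± 0.06, adjusted p = 4.27e-16), and lowered 0 (9.81% and 10.9% of all genes). At the adjusted p alone, ATF4 lay above control there (0.22 ± 0.06), and ATF3 (-0.48 ± 0.11) and TBL2 (-0.33 ± 0.08) below it. DDIT3 and GADD45A are induced by stress signalling and growth arrest, and UPP1 cleaves uridine. E8-cSGcm raised DDIT3 (1.01 ± 0.12) and UPP1 (0.87 ± 0.18) and lowered ATF3, a stress transcription factor (-0.83 ± 0.11). Of all genes, 4.73% were called higher and 3.86% lower in this medium. E15.5-mSGcm raised 0 and lowered ATF3 (-0.73 ± 0.12), beside 6.65% of all genes called higher and 7.27% lower. At the adjusted p alone 3 of the 6 lay below control there and 0 above, beside 20.0% and 17.8% of all genes. These mRNAs also respond to stress at transcription, and their list is small.

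The proteins that package snoRNAs showed no call against control. Of 19 core and assembly factors, such as the methyltransferase fibrillarin (FBL) and the pseudouridine synthase dyskerin (DKC1), 17 were tested and edgeR and DESeq2 called 0 against control in any medium, beside 20.7% of all genes called by edgeR in E8-cDRGcm, 13.9% in E15.5-mSGcm and 8.59% in E8-cSGcm. Between media, RUVBL2, an ATPase of the assembly complex, fell in E15.5-mSGcm relative to E8-cSGcm (-0.63 ± 0.06, adjusted p = 2e-11) and to E8-cDRGcm (-0.72 ± 0.06, adjusted p = 2.62e-13). At an unadjusted p under 0.05, edgeR placed 8 of the 17 factors away from control in E8-cDRGcm, 9 in E15.5-mSGcm and 6 in E8-cSGcm. The shares of all genes at this limit were 54.5%, 45.4% and 40.3%. At the adjusted p alone, 2 were above and 6 below control in E8-cDRGcm, 1 above and 6 below in E15.5-mSGcm, and 4 above and 2 below in E8-cSGcm. In the same order, the shares of all genes above and below were 24.8% and 24.7%, 17.8% and 20.0%, and 16.1% and 15.2%. Of 35 protein-coding snoRNA hosts, a class that includes ribosomal protein and translation factor genes, 33 were tested. Against the shares of all genes called that are given above, they gave 0 calls in both chick media with edgeR and DESeq2. In each of these media 20 of the 33 were at an unadjusted p under 0.05, beside 54.5% of all genes in E8-cDRGcm and 40.3% in E8-cSGcm. E15.5-mSGcm raised 1, NAP1L4, a histone chaperone, from 1.09 to 2.31 CPM (log2 1.06 ± 0.38, adjusted p = 0.0272), a call that DESeq2 did not make. At the adjusted p alone, 2 of the 33 lay above and 15 below control in E15.5-mSGcm (17.8% and 20.0% of all genes). In E8-cDRGcm 9 lay above and 8 below (24.8% and 24.7%), and in E8-cSGcm 14 above and 2 below (16.1% and 15.2%). The median log2 fold change of the coding hosts was 0.12 in E8-cSGcm, 0.10 in E8-cDRGcm and -0.11 in E15.5-mSGcm, beside -0.05, 0.14 and -0.22 for the non-coding hosts.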

How the data were processed

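RNA of IGR-N91 aggregates was counted in 8 libraries, grouped by their labels. The authors trimmed and mapped single reads of 75 bp from stranded total RNA libraries, and deposited raw counts per Ensembl gene, with no normalization; the submitters' processing notes name bcl2fastq 2.17.1.14, cutadapt 1.9.1, TopHat2 2.1.0 and HTSeq 0.11.3. The paper names hg19 and the notes GRCh38. The build behind the counts was not settled here, and printed positions are those of RefSeq on GRCh38.p14. Symbols (58611 of 60676 matched) and exon lengths came from GENCODE 44.

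Counts were tested with edgeR 4.0.16 in R 4.3.3 (TMM, filterByExpr by group, robust quasi-likelihood fit of all libraries, Benjamini-Hochberg adjustment over 16680 genes). CPM are counts scaled by the TMM library total. Figures used matplotlib 3.10.9. The steps were tested on simulated data. Replicate libraries differed by more than counting error (chi-square per gene 1.78 to 3.64). The study sent each condition in duplicate and describes its measurements as from distinct samples, without saying that these duplicates were separate cultures, so p-values measure only the spread between these libraries, which may be technical. Values were printed for host genes called against control, for the 5 most abundant and for up to 3 called genes per list and comparison; others were chosen after values were seen. The genes and lists were chosen with earlier results of these data known. Alternatives were DESeq2 1.42.0, RLE size factors, testing every gene with 1 count or only those with 10 counts in each library, a fit restricted to the groups compared, no fold limit, a block for the replicate number, and leaving out each library.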

Additional observations from a re-analysis of the deposited data

Results flagged for a closer look

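Host genes whose response differed between media by a direct test of the difference are listed with the log2 difference. Between E15.5-mSGcm and E8-cDRGcm these were SNHG8 (-1.002), CYTOR (-0.78), SNHG5 (-0.71), SNHG1 (-0.65) and ZFAS1 (-0.60), all lower in E15.5-mSGcm in both libraries. Between E15.5-mSGcm and E8-cSGcm it was SNHG20 (0.61), higher in both E15.5-mSGcm libraries. The differences of CYTOR, ZFAS1 and SNHG20 were lost under some settings, as given with their values. For SNHG1 the groups lay on opposite sides of control, with 0.28 ± 0.06 in E8-cDRGcm (adjusted p = 3.32e-04) and -0.36 ± 0.07 in E15.5-mSGcm (adjusted p = 1.08e-04). SNHG8 was at 0.73 and -0.27, where the latter (adjusted p = 0.0166) was lost with DESeq2 and without control replicate 1 or E15.5-mSGcm replicate 2.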

How the results depend on the processing

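Without the fold limit, the number of host genes past the adjusted p was 9 for E8-cSGcm, 16 for E8-cDRGcm and 11 for E15.5-mSGcm against control, 9 for E8-cDRGcm and 11 for E15.5-mSGcm against E8-cSGcm, and 16 for E15.5-mSGcm against E8-cDRGcm. Of these, in the same order, 4, 8, 3, 4, 4 and 9 were past the adjusted p in all other settings. DESeq2 gave 0 calls in place of 1 for E15.5-mSGcm against E8-cSGcm. With each library left out in turn, the counts in the same order ranged from 0 to 2, 3 to 4, 0 to 1, 0 to 3, 1 to 2 and 4 to 7. With a filter at 1 count in total, E15.5-mSGcm against E8-cDRGcm gave 7 calls. Against E8-cSGcm, the same filter gave 1 call, which was lower in E15.5-mSGcm and was thus not SNHG20. The cause of these shifts was not tested. The replicate number as a block left the counts at 0, 4, 0, 0, 1 and 5. Same-numbered libraries of 2 groups deviated together with r of -0.0437 to 0.0420 over 6 pairs of groups, so the numbers were not taken as pairs. RLE size factors and DESeq2 moved the median log2 fold change of all genes by at most 0.019, and no host gene past the adjusted p turned its sign in any setting. Among results for single genes, 50 were lost and 36 gained under a setting, 34 and 31 of them with a library left out. With 2 libraries a group and 3 counts as the least visible amount, small changes of the rare host genes could not be seen.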
